A study of Homo sapiens with 3 samples.

Results

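The 10 genes described here serve iron storage (FTH1 and FTL), ferritin turnover (NCOA4), iron import (TFRC and SLC11A2), iron export (SLC40A1), iron sensing (IREB2) and defence against lipid peroxides (GPX4, SLC7A11 and AIFM2). They were taken by gene name from tables of 78932 genes, and each was found as 1 row. RNA had been sequenced from 3 samples of iGluta, or iCell GlutaNeurons, a commercial culture of human glutamatergic neurons derived from induced pluripotent stem cells. The samples were wild type by label, untreated and of 1 group, and the design gives 3 weeks of culture. Polyadenylated RNA was made into strand-specific libraries and read as pairs of 151 bp. Levels are in TPM, a length-corrected share of all transcripts, as mean ± SD over the 3 libraries (n = 3) where no library is named.

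Iron enters most cells bound to transferrin, leaves the endosome through a divalent metal transporter, and is used, stored inside the ferritin shell or exported through ferroportin. Iron regulatory proteins bind a hairpin in mRNA, the iron-responsive element, when iron is scarce. Bound near the start of ferritin or ferroportin mRNA they block translation, and bound in the tail of the transferrin receptor mRNA they protect it from decay, so mRNA levels of the ferritin genes need not follow their protein. Ferroptosis is a form of cell death driven by iron-dependent peroxidation of membrane lipids, and neurons, rich in polyunsaturated lipids, are studied for their sensitivity to it.

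The hairpins are shown because, as background, they link the sensor IREB2 to the storage genes, the export gene and the import gene TFRC. Binding to them was not measured here. A C, any 5 bases and then the loop CAGTGN were searched on the transcript strand of GENCODE 29 coding transcripts, and a match was kept where all 5 base pairs of the upper stem (A-T, G-C or G-T) could form. Each line gives 30 bases in GRCh38, 5′ to 3′, written as DNA, with the 6 bases of the loop in capitals.
FTH1, 5′ UTR, chr11:61967573-61967602, minus strand: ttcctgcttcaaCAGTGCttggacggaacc
FTL, 5′ UTR, chr19:48965335-48965364, plus strand: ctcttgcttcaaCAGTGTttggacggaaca
SLC40A1, 5′ UTR, chr2:189580660-189580689, minus strand: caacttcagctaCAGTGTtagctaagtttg
TFRC, 3′ UTR, site 1, chr3:196050978-196051007, minus strand: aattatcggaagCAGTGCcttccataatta
TFRC, 3′ UTR, site 2, chr3:196050574-196050603, minus strand: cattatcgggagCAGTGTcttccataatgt
TFRC, 3′ UTR, site 3, chr3:196050509-196050538, minus strand: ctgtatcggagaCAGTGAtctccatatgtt
TFRC, 3′ UTR, site 4, chr3:196050462-196050491, minus strand: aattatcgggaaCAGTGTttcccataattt
Such a match was held by 0.107% of 5′ UTRs cut to the length of the FTH1 5′ UTR, by 0.0845% cut to that of FTL and by 0.131% cut to that of SLC40A1. It was held by 0.894% of 3′ UTRs cut to the length of the TFRC 3′ UTR. The match was in the 5′ UTR of 5 of 6 full FTH1 transcripts and in the 3′ UTR of 3 of 3 TFRC transcripts. In the other 6 genes these letters with a full stem were not found. The letters without the need for that stem were searched over whole transcripts, coding sequence included. They were in 11 of 11 SLC11A2 transcripts and in transcripts of NCOA4, IREB2, SLC7A11 and AIFM2, but not of GPX4. The share of all genes that hold these letters was not counted, so their presence is not read as an element. A hairpin with an imperfect stem is missed by this search, so it does not show that SLC11A2 or another gene lacks the element.

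The libraries held 34732725 to 60092991 estimated counts. Of 5 neuron markers 5 were above 1 TPM, where 71.2% of protein-coding genes tested were, and they summed to 4242 to 5278 TPM. Glutamatergic markers summed to 180, 204 and 251 TPM in replicates 1, 2 and 3, and GABAergic markers to 467, 509 and 245 TPM. In each of these lists 3 of 3 were above 1 TPM, beside the same 71.2%. Genes of GABA neurons thus stood beside the labelled glutamatergic identity, and their sum was the higher in replicates 1 and 2. In bulk RNA, fewer cells of a type and less RNA per cell cannot be told apart. None of 4 astrocyte, 4 microglia, 4 oligodendrocyte, 3 dividing cell or 3 fibroblast markers was called above 1 TPM by limma. At an unadjusted p under 0.05 it was also 0 of each list. Undecided were 3 astrocyte, 1 microglia and 2 oligodendrocyte markers, so levels near 1 TPM are not excluded. The astrocyte marker SLC1A3 was at 2.1, 0.69 and 0.53 TPM in replicates 1, 2 and 3. Sums of the lists, in the order above, reached at most 3.86, 1.31, 1.47, 0.41 and 0.31 TPM. AIF1 and C1QA of microglia and MAG of oligodendrocytes were at 0 counts in every library.

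All 10 genes were above 1 TPM, where 40.6% of all genes tested and 71.2% of protein-coding genes were above (limma, Benjamini-Hochberg adjusted p under 0.05). None of the 10 was below it, where 45.1% of all genes and 19.9% of protein-coding genes were. Of the 10, 7 were above 10 TPM, where 24.2% of all genes and 49.8% of protein-coding genes were above. The other 3, SLC40A1, AIFM2 and SLC7A11, were below 10 TPM, as were 71.4% of all genes and 43.1% of protein-coding genes. The median of the 10 genes was 33.5 TPM, and that of all protein-coding genes tested was 12.5 TPM.

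**Figure D1:**
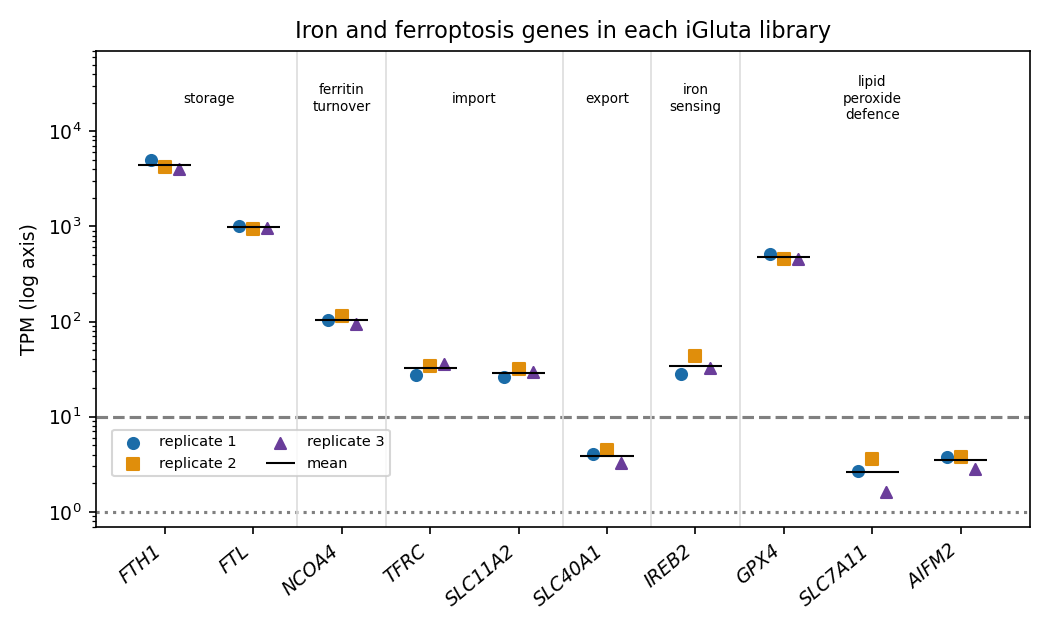
TPM of each gene in each library on a log axis, by role, with the mean as a bar and lines at 1 and 10 TPM. The ferritin genes and GPX4 lie between 454 and 4934 TPM in every library, and SLC40A1, SLC7A11 and AIFM2 lie between the lines.

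FTH1, the heavy chain of ferritin, which oxidises iron for storage, was at 4934, 4229 and 4041 TPM in replicates 1, 2 and 3. The mean of 4401 ± 471 TPM ranked 11 among all genes and 10 among protein-coding genes. Replicate 1 was highest, and the other replicates were close to each other. FTL, the light chain, which helps the iron core form, was at 1019, 949 and 952 TPM, a mean of 973 ± 39.6 TPM and rank 109 of all genes. FTH1 lies on chromosome 11 (61964285 to 61967634) and FTL on chromosome 19 (48965309 to 48966879) in GRCh38.p14. FTH1 exceeded FTL 4.51-fold, a log2 ratio of 2.28, 2.16 and 2.09 in replicates 1, 2 and 3. The mean of 2.17 ± 0.096 was more than 2 SD from 0 (exact permutation p = 0.25, the smallest that 3 libraries allow), and on CPM, counts scaled by the library total without length correction, it was 1.94.

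The ferritin genes have processed pseudogenes, copies of their mRNA in the genome, so the assignment of reads is less certain. FTH1, FTL and AIFM2 had no whole estimated count in any library (within 0.005), as happens when RSEM divides reads between genes. For FTH1 the estimates were 61287.10, 73613.63 and 45700.91 counts in replicates 1, 2 and 3. The table names 27 FTH1 pseudogenes, of which 17 had any count. Together they had 147.1, 169.8 and 66.2 estimated counts, which is 0.239, 0.230 and 0.145% of the counts of FTH1 and its pseudogenes. The highest were FTH1P10 with 41.2, 43.3 and 20.7 counts, FTH1P11 with 25.3, 32.7 and 7.4 and FTH1P2 with 18.1, 19.6 and 12.5. Of 18 FTL pseudogenes 2 had any count. They were FTLP3 with 8.0, 7.5 and 3.0 counts and FTLP12 with 0.08 counts in replicate 2, and the FTL pseudogene share was 0.0516, 0.0393 and 0.0246%. With the pseudogenes added to their parents, the log2 ratio of FTH1 over FTL was 2.18. RSEM thus gave nearly all ferritin reads to the parent genes, and whether reads that fit both were divided correctly was not tested.

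NCOA4, the receptor that carries ferritin to the lysosome so that its iron is released, was at 103, 114 and 93.6 TPM in replicates 1, 2 and 3 (103.6 ± 10.1). It lies on chromosome 10 (46005088 to 46030623). FTH1 and FTL together reached 5953, 5177 and 4994 TPM and exceeded NCOA4 51.9-fold (log2 ratio 5.70 ± 0.17, positive in 3 of 3 libraries; exact permutation p = 0.25). On CPM the same ratio was 9.74-fold, because counts are not divided by the effective length, which was 5.50 times that of FTH1 for NCOA4.

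The import genes were moderate. TFRC, the transferrin receptor at the cell surface, was at 27.7, 34.0 and 35.9 TPM in replicates 1, 2 and 3 (32.5 ± 4.28), lowest in replicate 1. SLC11A2, the metal transporter DMT1 that moves iron out of endosomes, was at 26.4, 31.3 and 29.5 TPM (29.1 ± 2.49). TFRC lies on chromosome 3 (196049284 to 196082090) and SLC11A2 on chromosome 12 (50952263 to 51028886). The log2 ratio of TFRC over SLC11A2 was 0.069 for replicate 1, 0.12 for replicate 2 and 0.28 for replicate 3. Its mean of 0.16 ± 0.11 did not reach 2 SD (exact permutation p = 0.25). It passed 2 SD when replicate 3 was left out, with a mean of 0.093, and on CPM, where it was 0.62. The storage genes together exceeded the import genes together 87.2-fold, with a log2 ratio of 6.45 ± 0.29 on TPM (6.78, 6.31 and 6.25; exact permutation p = 0.25) and a 13.3-fold ratio on CPM.

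The export gene was lower than both import genes. SLC40A1, which encodes ferroportin, the iron exporter, was at 4.07, 4.43 and 3.23 TPM in replicates 1, 2 and 3 (3.91 ± 0.616), from 224, 380 and 183 estimated counts. The gene lies on chromosome 2 (189560590 to 189580786). It was above 1 TPM (limma, adjusted p = 3.32e-05) and below 10 TPM (limma, adjusted p = 0.000156). TFRC exceeded SLC40A1 8.15-fold (log2 ratio 2.74, 2.91 and 3.43; mean 3.03 ± 0.36), and SLC11A2 exceeded it 7.31-fold (mean log2 ratio 2.87 ± 0.25). Both ratios were positive in 3 of 3 libraries (exact permutation p = 0.25 each). On CPM they were 13.3-fold and 8.66-fold.

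IREB2, the iron regulatory protein IRP2 that binds the hairpins shown above, was at 28.02, 43.01 and 32.29 TPM in replicates 1, 2 and 3 (34.4 ± 7.72). Replicate 2 was highest. The gene lies on chromosome 15 (78437431 to 78501453). ACO1, its relative IRP1 and also a cytosolic aconitase, was at 13.9, 14.2 and 13.6 TPM. IREB2 exceeded ACO1 2.43-fold (log2 ratio 1.01, 1.59 and 1.24; mean 1.28 ± 0.30; exact permutation p = 0.25). TFRC, SLC11A2 and IREB2 thus lay within a range of 26.4 to 43.01 TPM across the libraries.

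The defence genes were far apart. GPX4, a selenium enzyme that reduces phospholipid peroxides using glutathione, was at 509, 458 and 454 TPM in replicates 1, 2 and 3 (474 ± 30.5), rank 291 of all genes. SLC7A11, the subunit of system xc- that takes up cystine for glutathione synthesis, was at 2.69, 3.59 and 1.63 TPM (2.64 ± 0.981), and its lowest library was replicate 3. AIFM2, or FSP1, which regenerates reduced ubiquinone as a radical trap, was at 3.8, 3.76 and 2.84 TPM (3.47 ± 0.543). Both genes were above 1 TPM (limma, adjusted p = 0.00287 for SLC7A11 and 7.82e-05 for AIFM2). GPX4 lies on chromosome 19 (1103994 to 1106779), SLC7A11 on chromosome 4 (138164097 to 138242349) and AIFM2 on chromosome 10 (70112271 to 70132825).

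GPX4 exceeded SLC7A11 181-fold (log2 ratio 7.51, 6.95 and 8.04) and AIFM2 134-fold (7.03, 6.89 and 7.27). The SD of the log2 ratio was 0.54 for SLC7A11 and 0.19 for AIFM2, and both ratios were positive in 3 of 3 libraries (exact permutation p = 0.25 each). On CPM the mean log2 ratios were smaller, at 3.70 and 4.95. The difference between the scales follows from length, since the effective length of SLC7A11 was 15.6 times and that of AIFM2 4.75 times that of FTH1. Between the low pair, the log2 ratio of SLC7A11 over AIFM2 was -0.48, -0.065 and -0.77 (mean -0.44 ± 0.35; exact permutation p = 0.25), within 2 SD of 0, and on CPM it was 1.24 and so of the other sign. Without replicate 2 the mean was -0.62 and over 2 SD from 0.

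SLC3A2, the heavy chain that brings SLC7A11 and other amino acid transporters to the membrane, was at 225, 207 and 166 TPM in replicates 1, 2 and 3. SLC7A11 over SLC3A2 gave a log2 ratio of -6.24 ± 0.39, negative in 3 of 3 libraries (exact permutation p = 0.25), and on CPM it was -3.80. SLC7A5, another transporter that uses this heavy chain, was at 106 ± 20.2 TPM. GPX4 exceeded GPX1, the glutathione peroxidase for soluble peroxides, 2.21-fold (log2 ratio 1.15 ± 0.058; exact permutation p = 0.25). GPX4 exceeded ACSL4, which builds the polyunsaturated lipids that are oxidised in ferroptosis, 5.54-fold on TPM (log2 ratio 2.47 ± 0.26; exact permutation p = 0.25), but on CPM the log2 ratio was -0.40 ± 0.29, within 2 SD of 0. The 13 ratios formed 1 family, and the adjusted p was 0.25 for each.

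**Figure D2:**
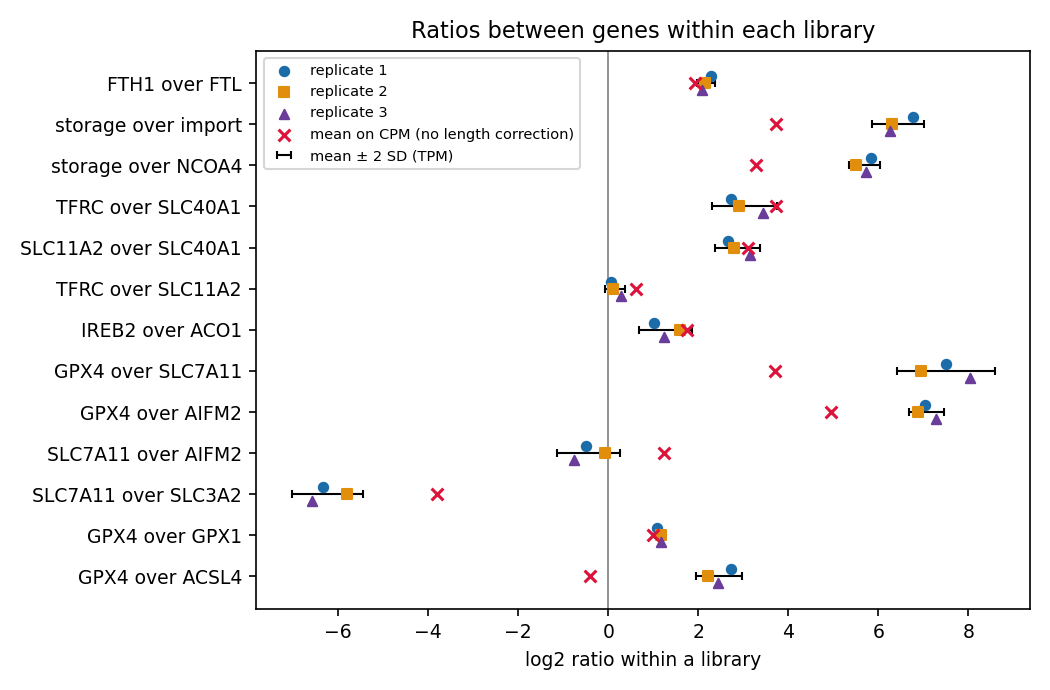
Log2 ratios between genes within a library, with 1 point per replicate, the mean of TPM ± 2 SD as a bar and the mean on CPM as a cross. Only TFRC over SLC11A2 and SLC7A11 over AIFM2 reach 0 within 2 SD, and the crosses for SLC7A11 over AIFM2 and GPX4 over ACSL4 lie on the other side of 0.

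In order of mean TPM the genes ran FTH1, FTL, GPX4, NCOA4, IREB2, TFRC, SLC11A2, SLC40A1, AIFM2 and SLC7A11. Of 9 pairs of neighbours 6 differed beyond 2 SD. IREB2 and TFRC (log2 ratio 0.068 ± 0.25; exact permutation p = 0.75), TFRC and SLC11A2, and AIFM2 and SLC7A11 did not. SLC40A1 exceeded AIFM2 by 0.17 ± 0.068 on the log2 scale, but the counting error of that ratio within a single library was 0.13, 0.11 and 0.16 (SE, replicates 1, 2 and 3), so their order is not settled by the counts. FTL exceeded GPX4 2.06-fold with little spread (log2 ratio 1.04 ± 0.034). On CPM, NCOA4 (174 CPM) stood ahead of GPX4 (157 CPM), and SLC7A11 (12.3 CPM) ahead of SLC40A1 (5.68 CPM) and AIFM2 (5.03 CPM).

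The spread between libraries was smallest for FTL and widest for SLC7A11 among the 10 genes. The coefficient of variation of TPM was 4.07% for FTL, 6.44% for GPX4 and 10.7% for FTH1, and it was 15.7% for both SLC40A1 and AIFM2, 22.4% for IREB2 and 37.2% for SLC7A11. The biological coefficient of variation from edgeR was 0.109 to 0.142 for the 7 genes above 10 TPM and 0.202 to 0.230 for SLC40A1, AIFM2 and SLC7A11. The common value over 19089 genes of all levels was 0.188. The 10 genes were not compared with genes of like level, so none is read as unusually stable or variable.

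Each library was set against the mean of the others. In replicate 1 none of the 10 genes was past 1.5-fold in either direction, where 5.6% of 18192 genes with a mean of at least 1 TPM were higher and 6.55% lower. In replicate 2 SLC7A11 was 1.68-fold higher, where 8.77% of those genes were higher and 3.6% lower past 1.5-fold. In replicate 3 SLC7A11 was at 0.539 of the other replicates, where 12.2% were lower and 6.88% higher past 1.5-fold. These shares describe single libraries and carry no test. The median log2 difference of all those genes was 0.13 in replicate 2 and -0.13 in replicate 3, and that of SLC7A11 was 0.75 and -0.89. IREB2 came closest after SLC7A11, at 1.43-fold in replicate 2. Mitochondrial genome transcripts took 4.25, 4.01 and 10.6% of TPM in replicates 1, 2 and 3, and the GABAergic marker sum was lowest in replicate 3. With mitochondrial genome genes left out SLC7A11 was at 0.576 of the other replicates in replicate 3, and the part of the GABAergic markers was not tested.

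**Figure D3:**
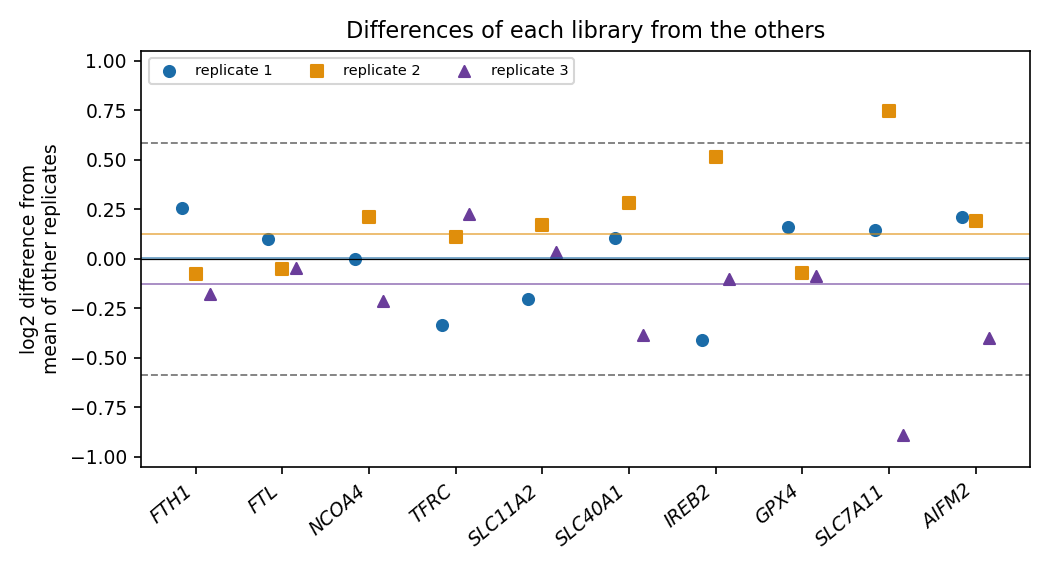
Log2 difference of each library from the mean of the other replicates, per gene, with dashed lines at 1.5-fold and coloured lines at the median of all genes with a mean of at least 1 TPM. SLC7A11 is past 1.5-fold upward in replicate 2 and downward in replicate 3, and the other 9 genes lie within the lines in every library.

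Of 95 other genes of iron and ferroptosis biology, 70 were above 1 TPM and 16 below it by limma, beside 71.2% above and 19.9% below among all protein-coding genes tested, so the counts were near the background. Another 5 passed in neither direction, and 4 were listed at 0 and not tested. The protein-coding shares are of tested genes only, so they have a narrower base than the 95 and than lists with a gene at 0. Of the 95, 54 were above 10 TPM, beside 49.8% of protein-coding genes, and the median of the 95 was 18.9 TPM. The lists with 0 genes called below 1 TPM were mitochondrial iron, cystine and glutathione, selenoprotein synthesis, antioxidant control and other iron sensing.

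Of 10 other uptake and reduction genes 3 were above 1 TPM and 5 below, beside 71.2% above and 19.9% below among protein-coding genes. Those above were SLC39A14, which takes up iron not bound to transferrin (19.1 ± 1.51 TPM), TFR2, the second transferrin receptor, known for iron sensing in liver (10.9 ± 1.40), and TF, transferrin itself (6.53, 6.19 and 2.63 in replicates 1, 2 and 3). HFE, STEAP1, STEAP4, SLC39A8 and CYBRD1 were below 1 TPM, between 0.01 and 0.443 TPM on average. Of 6 release and hormone genes 1 was above and 3 below. The gene above was HEPH, a ferroxidase that works with ferroportin (3.31 ± 0.336 TPM). CP, HAMP and BMP6 were below, TMPRSS6 was undecided at 0.53 ± 0.0854 TPM and HJV was at 0. HAMP encodes hepcidin, the liver hormone that removes ferroportin from the membrane, and it had a mean of 0.01 TPM.

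Among genes that handle iron inside the cell, PCBP2 (602 ± 11.3 TPM) and PCBP1 (300.03 ± 15.4), whose proteins bind RNA and also pass iron to ferritin, were the highest. PROM2, linked to the export of ferritin in vesicles, was at 2.95 ± 1.03 TPM, and SCARA5, a receptor for ferritin, was below 1 TPM. The mitochondrial ferritin gene FTMT and the heavy-chain-like gene FTHL17 had 0 counts throughout. A count of 0 allows up to 3 counts, or 0.0730, 0.0499 and 0.0864 CPM in replicates 1, 2 and 3, by counting error only. FBXL5, which marks IREB2 for degradation when iron is plentiful, was at 49.5 ± 4.87 TPM, and HIF1A, whose protein is controlled by iron-dependent hydroxylases, was at 84.8 ± 13.6 TPM.

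Of 9 haem genes 8 were above 1 TPM, as were 71.2% of protein-coding genes, led by HMOX2, the constitutive haem oxygenase (109 ± 10.1 TPM), ALAS1, the first enzyme of haem synthesis (91.5, 91.7 and 54.5 in replicates 1, 2 and 3), and BLVRA, a biliverdin reductase (54.5 ± 2.91). FLVCR2 was below. The inducible HMOX1, chosen after its value was seen, was at 2.90 ± 0.272 TPM. All 10 mitochondrial genes were above, led by the iron-sulphur cluster scaffold ISCU (134 ± 12.4 TPM), the glutaredoxin GLRX5 (95.5 ± 5.44) and CISD1, an outer membrane cluster protein (92.7 ± 9.99).

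All 10 cystine and glutathione genes were above 1 TPM, where 71.2% of protein-coding genes were, with SLC3A2 (199 ± 30.4 TPM), CHAC1, which degrades glutathione (155, 142 and 79.4 in replicates 1, 2 and 3), and CBS, which makes the cysteine precursor cystathionine (120 ± 13.1). All 7 selenoprotein synthesis genes were above, led by SEPHS2, which supplies activated selenium (63.9 ± 1.19 TPM), TRIT1 (47.7 ± 6.76) and SECISBP2, which binds selenoprotein mRNAs (39.6 ± 7.70). All 6 antioxidant control genes were above, with ATF4, an activator of stress genes that include SLC7A11, at 766, 724 and 608 TPM. KEAP1, the repressor of the antioxidant factor NFE2L2, was at 77.1 ± 7.87 TPM.

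Of 13 other genes listed under peroxide and radical defence 11 were above 1 TPM, beside 71.2% of protein-coding genes. GPX1 (214 ± 22.9 TPM), DHCR7 (156, 159 and 93.0 in replicates 1, 2 and 3) and GPX3, the secreted glutathione peroxidase (121 ± 5.42), led. DHCR7 is an enzyme of late cholesterol synthesis, and its level is not read here as defence. MBOAT1 was below and GPX8 was at 0. Of 14 genes for the making and oxidation of vulnerable lipids 8 were above and 5 below, led by PEBP1 (478 ± 14.6 TPM), a partner of lipoxygenases, POR (127 ± 10.6), an electron donor, and ACSL4 (76.3, 97.8 and 83.2 in replicates 1, 2 and 3). The lipoxygenases ALOX12, ALOX15 and ALOX15B, the cyclooxygenase PTGS2 and the oxidase NOX4 were below 1 TPM, at 0.0233 to 0.353 TPM on average. The other 3 of the 6 lipoxygenases, chosen after their values were seen, were not below. ALOX12B (2.49, 3.65 and 5.47 TPM in replicates 1, 2 and 3) and ALOXE3 (1.86 ± 0.278 TPM) were above 1 TPM, and ALOX5 (1.68 ± 0.506 TPM) passed in neither direction.

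**Figure D4:**
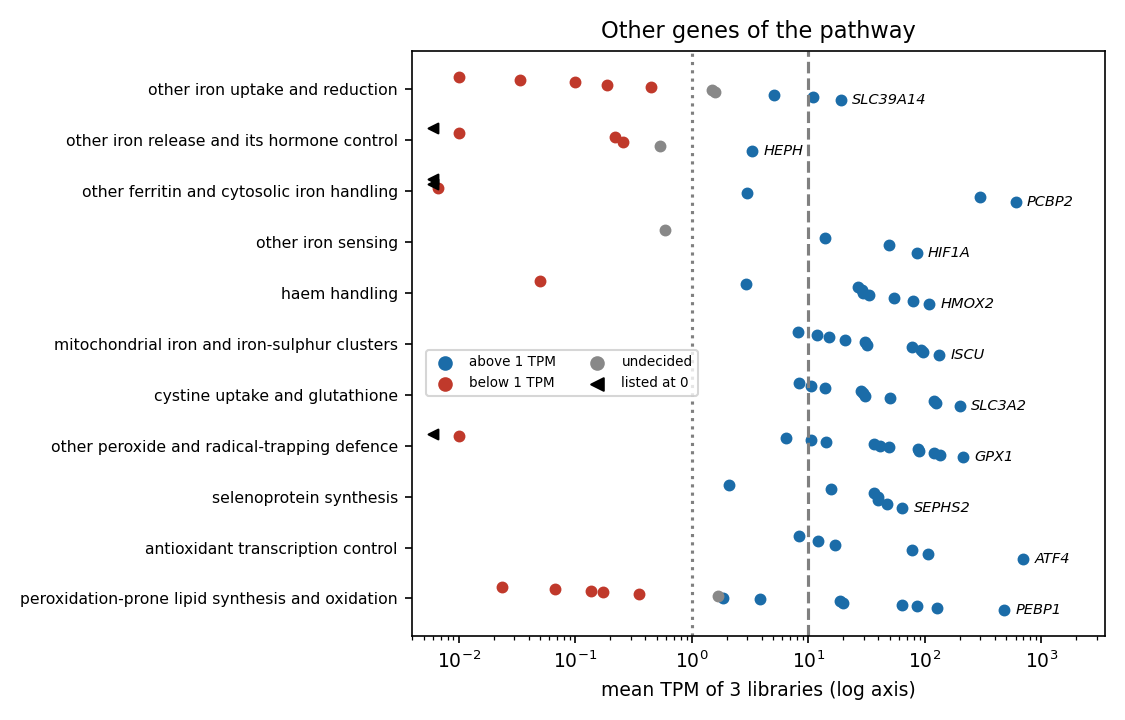
Mean TPM of the 95 other genes on a log axis, 1 row per list, coloured by the limma call against 1 TPM, with lines at 1 and 10 TPM and the highest gene of each list named. Triangles mark the 4 genes listed at 0, and the genes below 1 TPM lie mainly in the uptake, release and lipid oxidation rows.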

How the data were processed

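RNA was measured in 3 samples of 1 group, so every comparison is with a fixed level or within a library. The authors deposited estimated counts and TPM per gene, made with RSEM on GRCh38.p14, per the submitters' processing notes; the sources used here do not give the aligner, annotation release or strand setting. RSEM divides reads that match several genes. The labels describe triplicates without naming separate cultures, so errors and p-values measure the spread between samples, which may be technical.

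On the log2(TPM + 0.1) scale, each gene's mean was compared 2-sided with 1 and 10 TPM by limma 3.58.1 (moderated variance with a mean trend), with Benjamini-Hochberg adjustment over 38992 genes with any TPM above 0. Differences of low genes are understated on this scale. In data simulated for 38823 genes, the test against 1 TPM placed 30 of 40 genes simulated at 2 TPM above the bar. It placed 40 of 40 there at 4 TPM, 0 of 40 at 1 TPM, and 4 of 40 below it at 0.5 TPM. The test against 10 TPM placed 39 of 40 below at 4 TPM and 40 of 40 above at 20 TPM. These rates hold for the simulation only. Each gene moved to a simulated level kept the spread fitted at its measured level, not at the simulated one. The rates therefore do not describe measured genes at 0.5, 1 or 2 TPM. For the 13 log2 ratios, signs were flipped in every way (exact permutation, 2-sided), and 3 libraries allow no p below 0.25. A ratio counted as different when its sign was the same in 3 of 3 libraries and its mean exceeded 2 SD. edgeR 4.0.16 (counts rounded to whole numbers, TMM, 19089 genes) gave the biological coefficient of variation, and DESeq2 1.42.0 gave an alternative scaling. A chi-square comparison of counts gave 25.7 to 72.0 per degree of freedom between libraries, so none was a copy of another.

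The members and lists were chosen with earlier results of these data known. Named are the members, the 3 highest genes of each pathway list, those called below 1 TPM, the second gene of each ratio and the 3 ferritin pseudogenes with the highest mean count for each parent (only 2 FTL pseudogenes had any count). HJV, FTMT, FTHL17, GPX8, HMOX1, ALOX5, ALOX12B, ALOXE3 and the marker SLC1A3 were named after their values were seen. Gene positions are from RefSeq on GRCh38.p14, and sequences from GENCODE 29 on GRCh38, whose transcript set may differ from the authors'.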

Additional observations from a re-analysis of the deposited data

How the results depend on the processing

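All 10 genes stayed above 1 TPM and 7 above 10 TPM with a pseudocount of 1 or 0.01, genes of a mean count of at least 10, mitochondrial genome genes left out, TMM or DESeq2 scaling, no trend, and each replicate left out. Of the 13 ratios, 10 kept their direction and call under every alternative run. On CPM SLC7A11 over AIFM2 was 1.24, of the other sign and past 2 SD, GPX4 over ACSL4 was -0.40, of the other sign but within 2 SD of 0, and TFRC over SLC11A2 was 0.62, past 2 SD; CPM is not divided by length. With each replicate left out TFRC over SLC11A2 ranged from 0.093 to 0.20 and SLC7A11 over AIFM2 from -0.62 to -0.27, and the cause was not tested. Alternatives for the order, the pseudogene shares and the pathway lists were chosen after seeing the data, and the pathway count above 1 TPM ranged from 69 to 72. No paired analysis was possible because there is only 1 group. Counting error within single libraries limits the order of SLC40A1 and AIFM2. SLC7A11 had the lowest TPM of the 10 genes in every library. Its log2 ratio to AIFM2 varied between libraries by more than counting error, and its place differed on CPM.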
